A study of Mus musculus with 12 samples.

Results

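Hprt, the X-linked gene of the enzyme that salvages hypoxanthine and guanine, was examined together with 9 further genes of purine nucleotide synthesis in mouse embryoid bodies. These were Aprt and Adk, which belong with Hprt to the salvage branch, and Ppat, Gart, Pfas, Paics, Atic, Impdh2 and Gmps of the de novo branch. Hprt was chosen by its log2 array signal, which set the lines apart more than that of any other measured gene of this list. Its level in each line is therefore given as a description, with no p-value. The other genes were taken because they act in the same pathway. Of the 10 listed genes, 9 had a named probe set, 25 probe sets in all, out of 18193 genes and 45037 probe sets measured. Impdh2, the enzyme of the committed step towards guanine nucleotides, was not analysed here.

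The study profiled embryoid bodies of 3 lines on 12 Affymetrix expression arrays and asked which responses to nodal/activin signalling depend on Smad4 or Trim33. Embryoid bodies are aggregates that embryonic stem cells form in suspension culture without LIF. Smad4 is the shared partner of receptor-activated Smad proteins, and Trim33 is a nuclear protein that also binds them. The Smad4-null embryoid bodies were exposed at day 2.5 for 2 h to activin (50 ng/ml, Smad4-null-ac) or to SB431542, an inhibitor of the activin and nodal type I receptors that the labels give at 10 mM (Smad4-null-SB). The Trim33 knock-down embryoid bodies (Trim33-KD-ac and Trim33-KD-SB) and the wild-type ones (WT-ac and WT-SB) had the same treatments. Each of the 6 groups had 2 arrays, so that each line had 4. All cells were labelled strain 129, and every group received activin or the inhibitor. The sources used here do not say how the Smad4 allele and the knock-down were made, how many clones they stand for or which parental cells they came from. Nothing says that the 2 arrays of a group came from separate cultures, so each p-value covers array-to-array spread only, which may be technical.

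Cells make purine nucleotides by salvage or de novo. Salvage joins preformed bases to ribose phosphate or phosphorylates nucleosides. De novo synthesis builds the purine ring step by step on ribose phosphate up to inosine monophosphate (IMP), which is then turned into adenine or guanine nucleotides. Hprt is also a classic selectable gene of mouse embryonic stem cells, since cells without it survive thioguanine and die in HAT medium, and Hprt-deficient stem cell lines are in common laboratory use. The sources used here do not say whether these lines had been through such a selection.

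The promoter windows of Hprt, Aprt and Ppat are shown because these 3 genes had the largest differences between the Smad4-null line and WT among the 9, and that of Paics because its annotated gene overlaps Ppat. The sequences are those of RefSeq for GRCm38.p6, each 5′ to 3′ on the gene's own strand, from 250 bases before to 50 bases after the start. Capitals mark the 6 letters of the GC box, an element bound by Sp1-family factors, as GGGCGG or, where it lies on the other strand, as CCGCCC. The Hprt window is chrX:52987828-52988127 (plus strand) and the Aprt window chr8:122576858-122577157 (minus strand). The Ppat window is chr5:76951529-76951828 (minus strand) and the Paics window chr5:76951052-76951351 (plus strand).
Hprt: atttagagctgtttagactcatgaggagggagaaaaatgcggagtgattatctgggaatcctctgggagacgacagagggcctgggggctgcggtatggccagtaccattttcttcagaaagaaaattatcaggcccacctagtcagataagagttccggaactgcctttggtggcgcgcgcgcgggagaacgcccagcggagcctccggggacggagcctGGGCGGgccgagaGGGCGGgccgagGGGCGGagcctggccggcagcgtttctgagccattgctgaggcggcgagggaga
Aprt: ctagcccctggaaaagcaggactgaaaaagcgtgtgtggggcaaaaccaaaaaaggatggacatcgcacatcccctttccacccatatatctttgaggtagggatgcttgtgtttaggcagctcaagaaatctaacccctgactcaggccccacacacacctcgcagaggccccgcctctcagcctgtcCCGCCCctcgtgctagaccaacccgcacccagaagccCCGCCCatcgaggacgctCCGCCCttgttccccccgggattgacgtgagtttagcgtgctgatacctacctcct
Ppat: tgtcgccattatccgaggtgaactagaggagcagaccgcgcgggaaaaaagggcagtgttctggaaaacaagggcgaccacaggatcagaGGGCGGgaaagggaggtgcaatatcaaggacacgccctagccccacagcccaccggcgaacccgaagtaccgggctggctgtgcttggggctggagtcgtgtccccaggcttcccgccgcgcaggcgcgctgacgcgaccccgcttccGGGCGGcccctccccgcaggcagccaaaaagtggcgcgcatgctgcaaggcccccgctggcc
Paics: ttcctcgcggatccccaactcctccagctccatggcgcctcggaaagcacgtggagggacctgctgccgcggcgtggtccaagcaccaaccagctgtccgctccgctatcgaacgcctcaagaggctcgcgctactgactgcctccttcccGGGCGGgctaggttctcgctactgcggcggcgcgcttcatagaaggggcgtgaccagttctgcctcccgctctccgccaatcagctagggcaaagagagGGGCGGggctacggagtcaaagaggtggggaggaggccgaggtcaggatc

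The Hprt window held 3 GC boxes, all on the strand shown, and the Aprt window held 3, all on the other strand. Ppat and Paics held 2 each. Of the 10 listed genes, 9 had a window, with 10 windows in all because Adk had 2, and 10 of the 10 windows held a GC box on either strand, against 35.7% of all 32851 windows of 300 bases. The 4 windows printed were 61.0% (Hprt), 57.7% (Aprt), 66.7% (Ppat) and 65.7% (Paics) G or C, against a median of 52.7% over all windows. The E-box CACGTG, a site for Myc and related factors, was found in 3 of the 10 windows (Atic, Impdh2 and Paics), against 7.15% of all windows. CCAAT, searched on both strands, was found in 6 of the 10 windows, belonging to Adk, Atic, Gart, Impdh2 and Paics, against 37.4% of all. TGATGNAA, part of the ATF4 motif, was found in 0 of the 10 windows, against 3.97% of all. None of these motifs shares its letters with another. A match is a stretch of letters and not a measured site.

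Hprt was bright in the Smad4-null line and near the array medians in both other lines. Its enzyme, hypoxanthine-guanine phosphoribosyltransferase, turns hypoxanthine and guanine back into IMP and guanosine monophosphate. The gene lies at X:52988078-53021660 in GRCm38.p6 and had a single probe set (1448736_a_at). On the log2 signal scale, it read 12.91 and 12.69 in Smad4-null-ac and 12.59 and 12.67 in Smad4-null-SB. It read 5.69 and 5.91 in Trim33-KD-ac and 6.16 and 5.61 in Trim33-KD-SB. It read 6.09 and 6.37 in WT-ac and 5.84 and 6.32 in WT-SB. The 4 Smad4-null arrays all stood far above the 8 others, and the Trim33-KD and WT arrays overlapped. The line means were 12.72 ± 0.14 in Smad4-null, 5.84 ± 0.25 in Trim33-KD and 6.15 ± 0.24 in WT (log2 signal, SD, n = 4 each).

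The difference between Smad4-null and WT was 6.56 ± 0.17 (log2, SE of the limma fit), a 94.6-fold higher signal. The array medians lay between 5.85 and 6.30 on the same scale, so the Trim33-KD and WT signals of Hprt were close to the signal of a median probe set. The files used here hold no detection calls. Whether those 8 values lie above background is therefore unknown, and the fold is a ratio of signals and not a bound on the RNA. Where this probe set lies in the transcript is also not given. In such bulk samples, fewer cells of a type and less RNA per cell cannot be told apart. The order of the lines for Hprt was Smad4-null, then WT, then Trim33-KD, and WT and Trim33-KD did not differ beyond the spread of their arrays, with a difference of -0.31 ± 0.17 (log2, Trim33-KD minus WT).

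Over all 18193 genes, the size of the Hprt difference between Smad4-null and WT ranked 2. Sp5, a transcription factor gene known as a Wnt target, was ranked 1 at -6.68 (log2), and the next after Hprt were Mid1 at -5.47, Aplnr at -5.36, Rtl8c at -5.12 and Fst at -4.72. Among these 6 genes Hprt was the one with the higher signal in Smad4-null, and Sp5, Mid1, Aplnr, Rtl8c and Fst were lower there. Mid1 and Rtl8c lie on the X chromosome, as Hprt does.

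**Figure D1:**
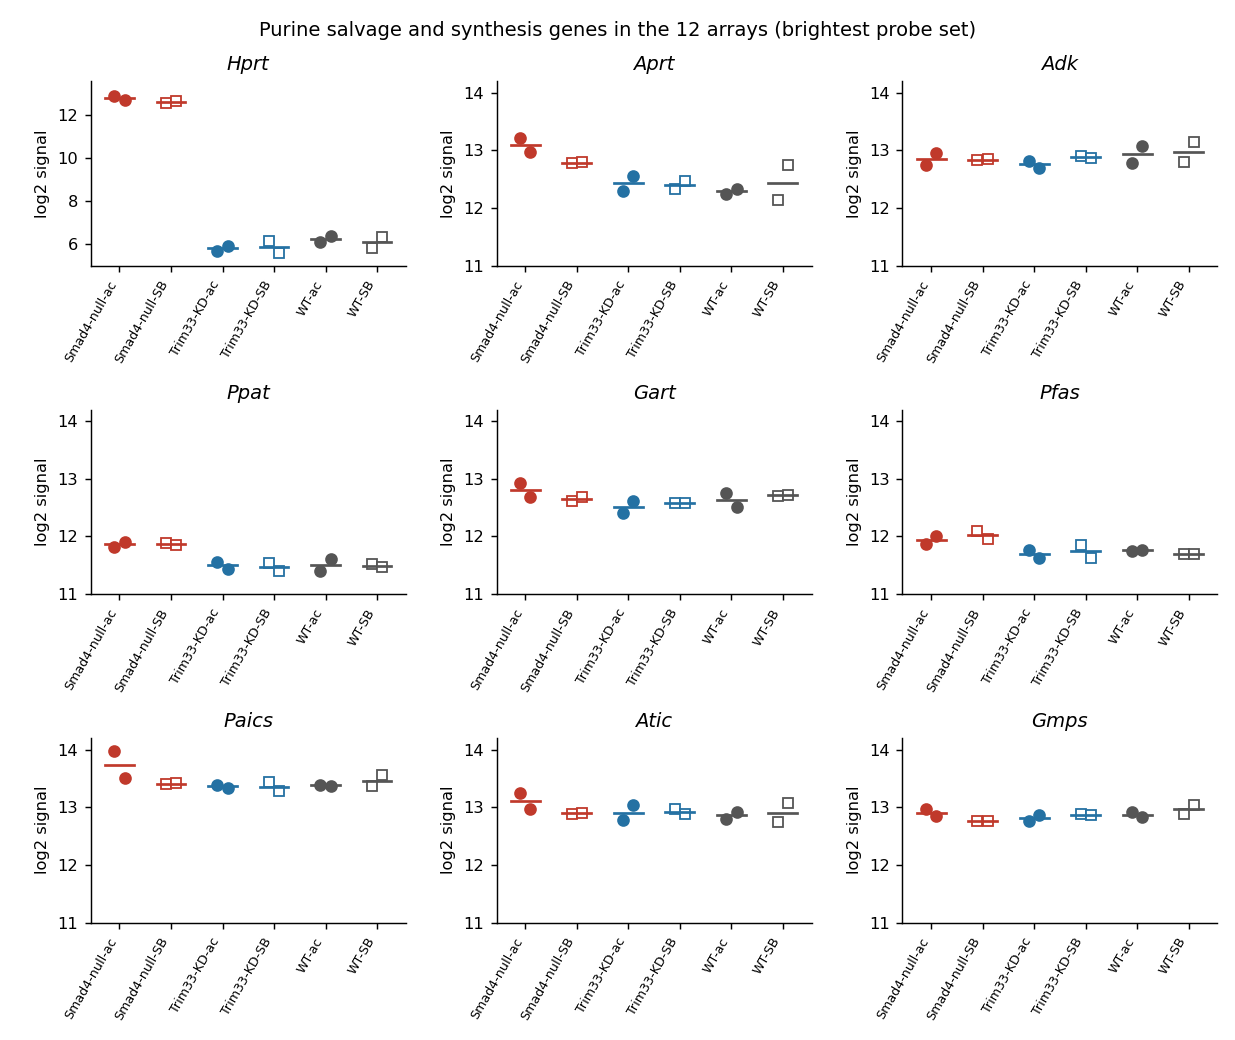
Signal of the brightest probe set of each of the 9 genes on each of the 12 arrays (y axis, log2 signal; Hprt has a longer axis than the others), by line (Smad4-null, Trim33-KD, WT from left to right), with filled circles for activin, open squares for SB431542 and a line at the mean of 2 arrays. The 4 Smad4-null arrays of Hprt sit between 12.59 and 12.91, above all 8 others, while the other 8 genes are bright in all 3 lines.

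Of the 9 genes, 3 passed the limma test between Smad4-null and WT with a higher signal (Hprt, Aprt and Ppat), against 7.12% of all genes raised and 11.3% lowered, and 0 of 9 passed with a lower one. Hprt is in that count through the values it was chosen by, and nothing is read from the count. The median difference was 0.15 (log2) for the 9 genes and 0.14 for the 8 without Hprt, beside -0.03 over all genes. The arrays of the 2 lines did not overlap for 4 of the 9 genes (Hprt, Aprt, Ppat and Pfas), all higher in Smad4-null. Without Hprt, chosen by this difference, these were 3 of 8 genes, against 10.8% of all genes higher without overlap. Without the array Smad4-null-ac replicate 2, Smad4-null-SB replicate 1, Smad4-null-SB replicate 2 or WT-ac replicate 1, the count that passed limma was 1 (Hprt). It was also 1 without both WT arrays of low 18S signal described further on.

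Aprt, the adenine counterpart of Hprt in salvage, makes adenosine monophosphate from adenine (8:122574637-122576907, 2 probe sets). The brighter probe set read 13.21 and 12.97 in Smad4-null-ac and 12.78 and 12.80 in Smad4-null-SB. It read 12.29, 12.56, 12.33 and 12.47 in Trim33-KD, and 12.24, 12.34, 12.14 and 12.74 in WT (2 activin arrays first in each line). All 4 Smad4-null arrays lay above all WT arrays, by as little as the gap between 12.78 and 12.74. The line means were 12.94 ± 0.20 in Smad4-null, 12.41 ± 0.12 in Trim33-KD and 12.36 ± 0.26 in WT (log2 signal, SD, n = 4 each). The difference between Smad4-null and WT was 0.57 ± 0.15 (log2, SE), or 1.49-fold. The second probe set (1423801_a_at) gave 0.46 for the same difference, with arrays from 12.64 to 12.89 in Smad4-null and from 12.18 to 12.41 in WT. Both probe sets thus showed Aprt higher in Smad4-null, by far less than Hprt.

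Adk phosphorylates adenosine to adenosine monophosphate (14:21052574-21448569, 6 probe sets). Its brightest probe set averaged 12.84 ± 0.09 in Smad4-null, 12.82 ± 0.09 in Trim33-KD and 12.95 ± 0.19 in WT (log2 signal, SD, n = 4 each), and the arrays overlapped. The second probe set (1416319_at) read 11.63, 11.41, 11.29 and 11.50 in Smad4-null and 11.64, 11.83, 11.66 and 12.10 in WT. For that probe set all Smad4-null arrays lay below all WT arrays, with a difference of -0.35 (log2). So did all Trim33-KD arrays, at 11.54, 11.47, 11.51 and 11.48, with a difference of -0.31 from WT (log2). The 4 dimmer probe sets gave differences between Smad4-null and WT from -0.17 to 0.51, and their arrays overlapped. Of them, 1446675_at, 1421767_at and 1446068_at averaged below 6 on the log2 scale in both lines. The probe sets of Adk thus did not share a direction.

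The first enzyme of the de novo branch is that of Ppat, which commits ribose phosphate to purine synthesis (5:76913249-76951578, 3 probe sets). The brightest probe set (1452831_s_at) read 11.82, 11.90, 11.89 and 11.86 in Smad4-null. It read 11.56, 11.43, 11.54 and 11.41 in Trim33-KD, and 11.40, 11.61, 11.52 and 11.46 in WT. The Smad4-null arrays lay in a narrow band above the other 2 lines, and the difference from WT was 0.37 ± 0.08 (log2, SE), or 1.29-fold. The other 2 probe sets of Ppat read lower in Smad4-null than in WT on average, at -0.12 (1428543_at) and -0.66 (1441770_at), with overlapping arrays. The last of these, 1441770_at, was dim, averaging 2.13 in Smad4-null, 1.57 in Trim33-KD and 2.79 in WT (log2 signal). The higher signal of Ppat in Smad4-null was thus seen with 1452831_s_at and not with 1428543_at. The difference turned to -0.14 when the 3 probe sets were averaged, the dim one included. The _s_at suffix of 1452831_s_at marks a probe set that can also match other transcripts.

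Gart carries 3 activities of the following steps in 1 protein (chromosome 16, 4 probe sets). The brightest probe set averaged 12.73 ± 0.13 in Smad4-null, 12.54 ± 0.10 in Trim33-KD and 12.67 ± 0.11 in WT (log2 signal, SD, n = 4 each), a difference from WT of 0.06 ± 0.10 (log2, SE). The next probe set (1424436_at) read 12.34, 12.41, 12.63 and 12.45 in Smad4-null, 11.90, 11.68, 11.74 and 11.90 in Trim33-KD, and 11.87, 11.92, 11.98 and 11.41 in WT. This second probe set was higher in every Smad4-null array than in any other array, by 0.66 (log2) over WT, or 1.58-fold. Another (1424435_a_at) gave 0.65, but 12.17 and 12.12 on the replicate 1 arrays of WT against 11.20 and 11.13 on the replicate 2 arrays. Those 2 replicate 1 arrays of WT are the ones with low 18S signal, and they also stood high for Atic probe set 1452811_at. The probe sets of Gart thus did not share the size of the difference.

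Pfas, Paics and Atic run further steps towards IMP. Pfas (chromosome 11, 1 probe set) read 11.88, 12.01, 12.10 and 11.95 in Smad4-null, 11.77, 11.62, 11.85 and 11.63 in Trim33-KD, and 11.75, 11.76, 11.70 and 11.69 in WT. Its Smad4-null arrays lay above those of both other lines, by 0.26 ± 0.09 over WT (log2, SE), and it was not among the genes that passed, although it passed with the brighter 50% of genes alone, with values floored at 64 and with a trended and robust prior. Paics, a bifunctional enzyme (5:76951302-76967509, 3 probe sets), averaged 13.57 ± 0.27 in Smad4-null, 13.36 ± 0.06 in Trim33-KD and 13.42 ± 0.09 in WT. In Smad4-null the replicate 1 activin array read 13.97 and the other 3 read 13.50, 13.39 and 13.42, so the spread of Paics came from 1 array. Atic, which closes the ring to give IMP (chromosome 1, 2 probe sets), averaged 13.00 ± 0.17 in Smad4-null, 12.92 ± 0.11 in Trim33-KD and 12.88 ± 0.14 in WT. The arrays of Paics and of Atic overlapped between Smad4-null and WT.

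Ppat and Paics lie head to head, and their annotated genes overlap by 277 bases on chromosome 5. Their differences between Smad4-null and WT were 0.37 ± 0.08 for Ppat and 0.15 ± 0.11 for Paics (log2, SE). Whether these 2 differences differ from each other was not tested.

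After IMP, Gmps makes guanosine monophosphate from xanthosine monophosphate (chromosome 3, 3 probe sets). It averaged 12.83 ± 0.09 in Smad4-null, 12.84 ± 0.05 in Trim33-KD and 12.92 ± 0.09 in WT (log2 signal, SD, n = 4 each), a difference of -0.08 ± 0.07 between Smad4-null and WT (log2, SE). Its 2 dimmer probe sets gave -0.23 and -0.03 with overlapping arrays. Gmps and Adk were the 2 genes of the 9 whose brightest probe set read lower in Smad4-null than in WT.

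**Figure D2:**
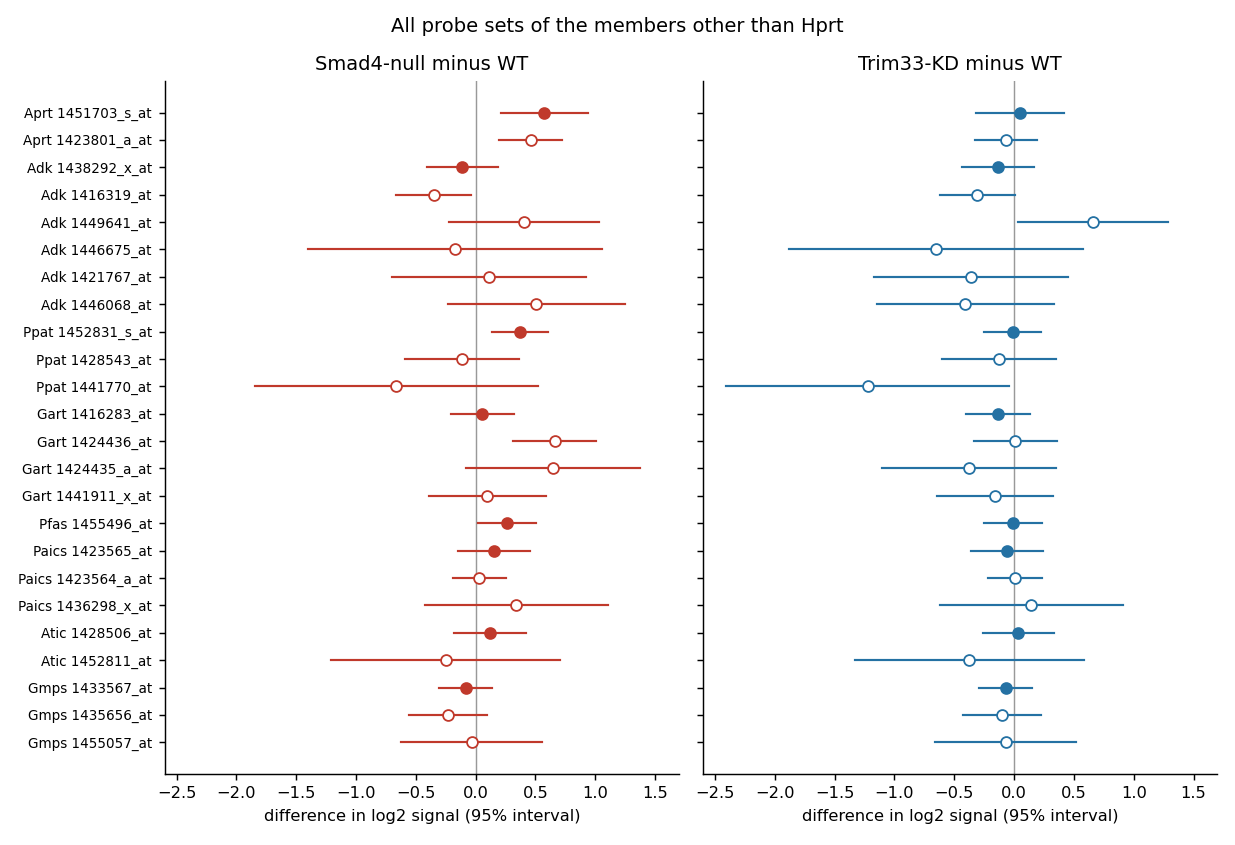
Difference in log2 signal (x axis) with its 95% interval for the 24 probe sets of the 8 genes other than Hprt, Smad4-null minus WT on the left and Trim33-KD minus WT on the right, with filled points for the brightest probe set of each gene. On the left the probe sets of Ppat and of Gart stand apart from each other. Values run from -0.66 to 0.37 for Ppat and from 0.06 to 0.66 for Gart. The Ppat value of -0.66 is from the dim probe set 1441770_at, at 2.13 in Smad4-null and 2.79 in WT (log2 signal).

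Between Trim33-KD and WT, which was not used to choose the 8 genes other than Hprt, 0 of the 8 passed limma at an adjusted p of 0.05, against 0.649% of all genes, and 0 of the 8 had an unadjusted p under 0.05, beside 17% of all genes. Their differences ran from -0.13 (Gart and Adk) to 0.05 (Aprt) on the log2 scale, with a median of -0.03 beside -0.04 over all genes. The limma adjusted p-values ran from 0.514 (Gart) to 0.971 (Pfas). By the brightest probe set, the 95% intervals of all 8 lay between -0.40 (Adk) and 0.39 (Aprt). A difference of the size of Aprt in Smad4-null lay outside each of them. On the same probe sets, the arrays of the 2 lines overlapped for 9 of the 9 genes, Hprt included, against 12.4% of all genes without overlap. Among the dimmer probe sets, Adk 1416319_at was lower in Trim33-KD without overlap (-0.31). Adk 1449641_at was higher without overlap (0.66, 95% interval 0.04 to 1.29). Neither passed (limma adjusted p = 0.374 and 0.349 over all probe sets). Ppat 1441770_at, at 1.57 in Trim33-KD and 2.79 in WT, gave -1.22 (95% interval -2.41 to -0.04) with overlapping arrays. The knock-down itself was visible, with Trim33 at 10.18 in Trim33-KD and 11.72 in WT (log2 signal), a difference of -1.54 ± 0.13 (limma adjusted p = 0.0101).

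Activin and SB431542 were compared within each line. In Smad4-null embryoid bodies 0 of the 9 genes passed limma, against 0.011% of all genes, and 0 had an unadjusted p under 0.05. The differences of activin minus SB431542 ran from -0.08 (Pfas) to 0.33 (Paics), with a median of 0.16 beside 0.06 over all genes, and the lowest limma adjusted p was 0.766. Hprt differed by 0.17 ± 0.24 (log2, SE), with a 95% interval from -0.38 to 0.72 (limma adjusted p = 0.906). By the brightest probe sets, both activin arrays lay above both SB431542 arrays for 6 of the 9 genes, against 28.7% of all genes. Dimmer probe sets were lower with activin without overlap for Gart (1424436_at, -0.16), Paics (1436298_x_at, -0.38), Atic (1452811_at, -0.27) and Gmps (1455057_at, -0.41). Those of Aprt (1423801_a_at, 0.15) and Gart (1424435_a_at, 0.28) were higher without overlap. On the brightest probe sets, the activin replicate 1 array was the highest for Hprt, Aprt, Gart, Paics, Atic and Gmps. That array was 1 of 2 with a narrow spread of values. Without it the difference of Paics was 0.10 instead of 0.33, that of Aprt 0.18 instead of 0.30 and that of Hprt 0.06 instead of 0.17.

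In Trim33-KD embryoid bodies 0 of the 9 genes passed, against 0.011% of all genes, and 0 had an unadjusted p under 0.05. Differences ran from -0.12 (Adk) to 0.02 (Aprt), with a limma adjusted p of 0.99995 for every one of the 9. By the brightest probe sets, both activin arrays lay below both SB431542 arrays for 2 genes (Adk and Gmps), against 19.6% of all genes. In WT embryoid bodies 0 of the 9 passed, against 0.033% of all genes, and 0 had an unadjusted p under 0.05. Differences there ran from -0.15 (Aprt) to 0.15 (Hprt), with a limma adjusted p of 0.9996 for each, and Pfas alone had both activin arrays above both SB431542 arrays, against 9.66% of all genes. The 2 h treatment thus moved none of the 9 genes past the test in any line.

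The response to activin was also compared between lines. For the Smad4-null response minus the WT response, 0 of 9 genes passed limma, against 0% of all genes, with values from -0.14 (Pfas) to 0.45 (Aprt), a median of 0.23 beside 0.11 over all genes, and a lowest adjusted p of 0.745. The value of Hprt was 0.03, with a 95% interval from -0.75 to 0.81. For the Trim33-KD response minus the WT response, 0 of 9 passed, against 0% of all genes, with values from -0.23 (Hprt) to 0.18 (Aprt). No gene of the 9 had an unadjusted p under 0.05 in either. With 2 arrays a group these intervals are wide.

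**Figure D3:**
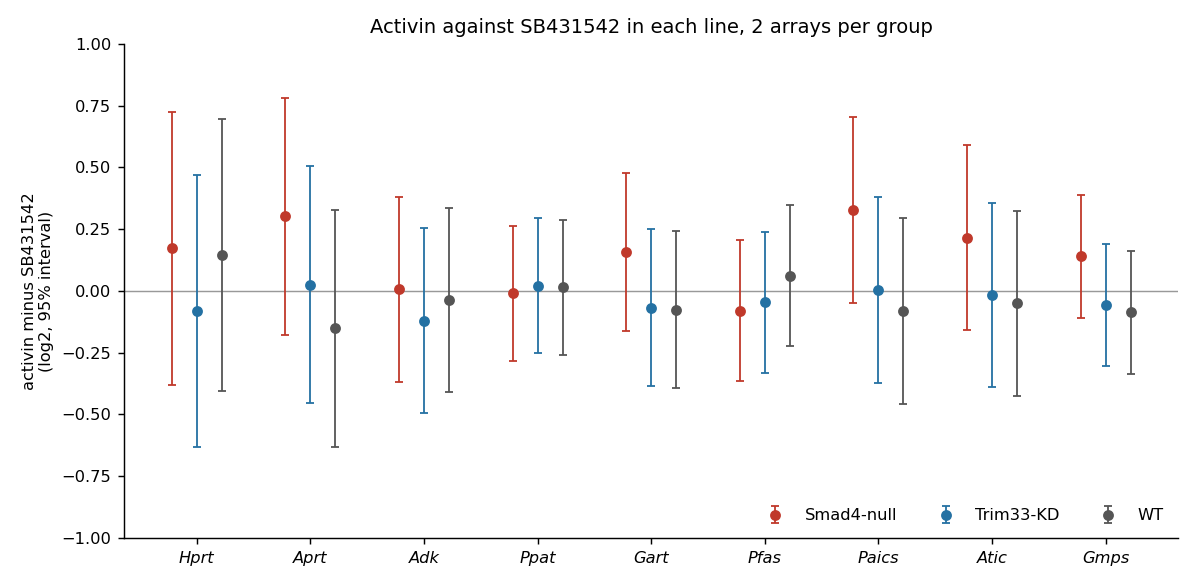
Activin minus SB431542 in log2 signal (y axis) with its 95% interval for the 9 genes in the Smad4-null, Trim33-KD and WT lines. The points lie between -0.15 and 0.33 and every interval includes 0.

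The genes whose signal followed Hprt most closely over the 12 arrays, by Pearson correlation among the 9095 genes in the brighter 50%, were Urb2 (r = 0.995), Pipox (0.993), Sohlh2 (0.990), Gpat2 (0.989) and Enpp3 (0.989). Pipox is a peroxisomal oxidase of pipecolic acid, Sohlh2 is a germ cell transcription factor and Gpat2 is an acyltransferase known from testis. Sohlh2 averaged 10.54 in Smad4-null, 8.03 in Trim33-KD and 8.35 in WT (log2 signal), a difference of 2.19 between Smad4-null and WT. Urb2 averaged 11.53 in Smad4-null, 10.50 in Trim33-KD and 10.56 in WT, a difference of 0.97. All 5 share with Hprt a step between the Smad4-null arrays and the rest, with differences from 0.80 (Enpp3) to 2.19, far below the 6.56 of Hprt. The correlations describe that step in shared arrays, and none of the 5 is on the X chromosome.

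The genes around Hprt on the X chromosome did not share its difference. The 20 nearest measured genes, 10 on each side, had differences between Smad4-null and WT from -5.12 (Rtl8c) to 1.42 (Ct55), with a median of -0.32, and 8 of the 20 were above 0. Next to Hprt, Phf6 differed by 0.04 on one side and Plac1 by 0.07 on the other, and Gpc3, a cell surface proteoglycan gene, by -0.02. Fam122b differed by 0.66, Ccdc160 by 0.46 and Mospd1 by -0.49. Rtl8c, the sixth gene after Hprt, averaged 4.32 in Smad4-null, 9.14 in Trim33-KD and 9.44 in WT (log2 signal). Thus 2 genes of this stretch differed by over 5 log2 units, and in opposite directions. The 308 brighter genes of the X chromosome had a median difference of -0.03.

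Around Aprt the picture was another. Of its 20 nearest measured genes on chromosome 8, 18 had a difference above 0 between Smad4-null and WT, with a median of 0.33 and a range from -0.26 to 1.01, and 10 were higher without overlap of the arrays. The median over the 522 brighter genes of chromosome 8 was 0.21, the highest of any autosome, and chromosome 14 had the lowest at -0.54 over 304 genes. The same neighbours of Aprt had a median of 0.01 between Trim33-KD and WT. Adk lies on chromosome 14, and its 20 neighbours had a median of 0.04 and a range from -1.05 to 0.91. The Aprt difference of 0.57 thus stood within the range of its neighbours, and the part of the chromosome in it was not tested.

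**Figure D4:**
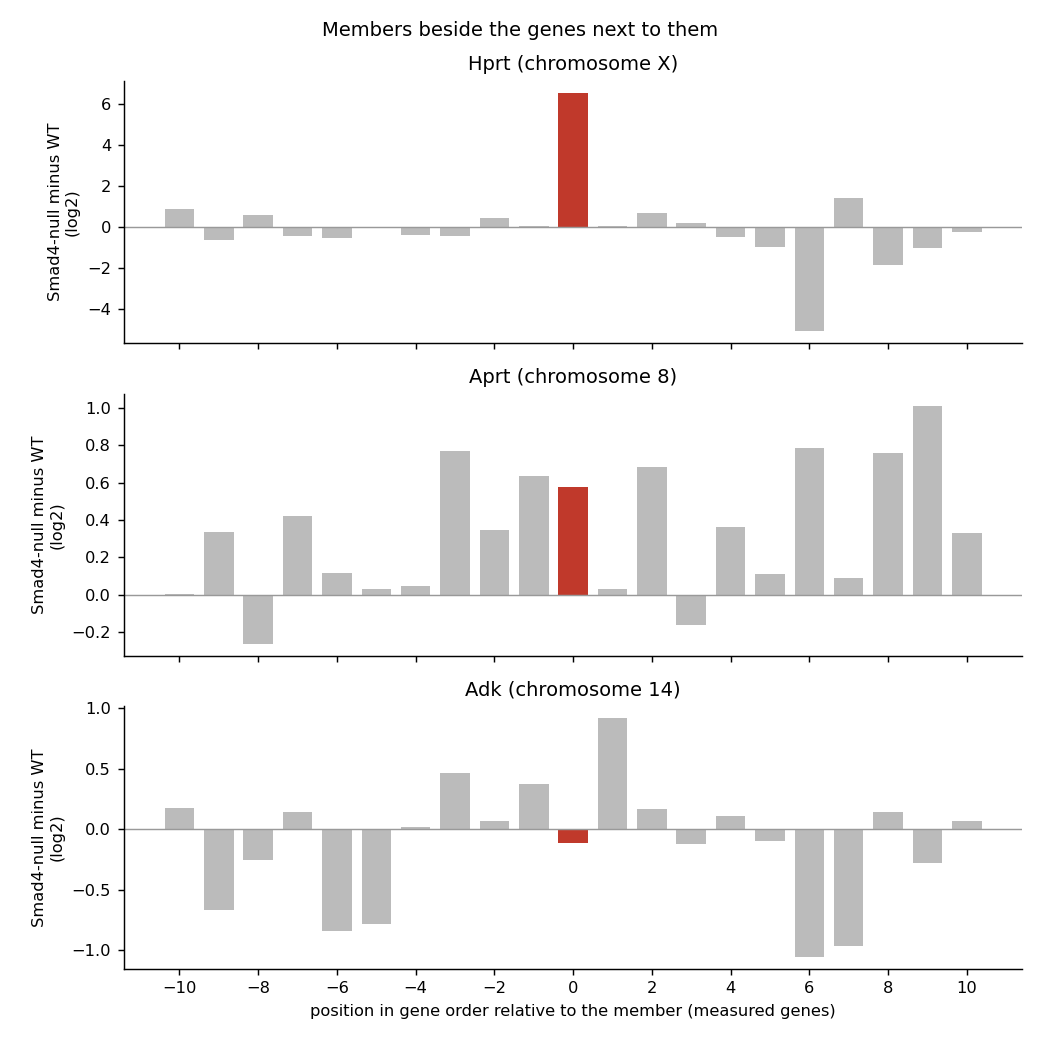
Smad4-null minus WT in log2 signal (y axis, a separate scale in each panel) for Hprt, Aprt and Adk and the 10 measured genes on each side, in chromosome order. Hprt at 6.56 stands alone among genes between -5.12 and 1.42, while 18 of the 20 neighbours of Aprt lie above 0.

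The wider purine network was read from a list of 33 further measured genes. Between Smad4-null and WT, 2 passed limma with a higher signal and 5 with a lower one, beside 7.12% and 11.3% of all genes, with a median difference of 0.00. Among the lower ones, Nt5e, the surface enzyme CD73 that makes adenosine from adenosine monophosphate, read 5.35, 5.48, 5.09 and 5.28 in Smad4-null, 9.05, 8.91, 9.06 and 8.75 in Trim33-KD, and 8.99, 9.10, 8.77 and 8.996 in WT. The Smad4-null arrays were all lower than WT, with a difference of -3.67 ± 0.11 (log2, SE), and Trim33-KD and WT overlapped. All 4 Smad4-null values of Nt5e lay below 6 on the log2 scale, and the difference was -2.96 with values floored there and -2.55 with its probe sets averaged. Adssl1, a muscle-type adenylosuccinate synthase, fell by 1.23, the guanine deaminase Gda by 1.05 and Ak3, a mitochondrial adenylate kinase family member, by 0.76. Among the higher ones, Ampd3, an adenosine monophosphate deaminase, differed by 1.42, but its WT arrays, from 5.21 to 5.52, lay below 6 on the log2 scale, as did all arrays of Gda. Prps1, an X-linked synthetase of the ribose phosphate donor used by Hprt, Aprt and Ppat, differed by 0.29, with 12.40 ± 0.06 in Smad4-null and 12.11 ± 0.09 in WT (log2 signal, SD, n = 4 each) and no overlap.

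Of the 13 measured pyrimidine genes, taken as the parallel pathway, 2 passed as higher and 1 as lower between Smad4-null and WT, beside 7.12% and 11.3% of all genes. Cda, the cytidine deaminase of pyrimidine salvage, averaged 6.10 in Smad4-null, 8.08 in Trim33-KD and 8.79 in WT (log2 signal), a difference of -2.69 between Smad4-null and WT. Dhodh, the mitochondrial enzyme of the de novo pathway, differed by 0.86 and Dctd, the deoxycytidylate deaminase, by 0.49, and both lie on chromosome 8 as Aprt does. Between Trim33-KD and WT, 0 of the 33 purine genes and 0 of the 13 pyrimidine genes passed limma, beside 0.649% of all genes, while 5 and 3 of them had an unadjusted p under 0.05, beside 17% of all genes (3087 of 18193). Nt5e differed by -0.02 there (limma adjusted p = 0.939), and Cda by -0.71 (limma adjusted p = 0.0646). Neither list had a gene that passed for activin against SB431542 in any line.

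**Figure D5:**
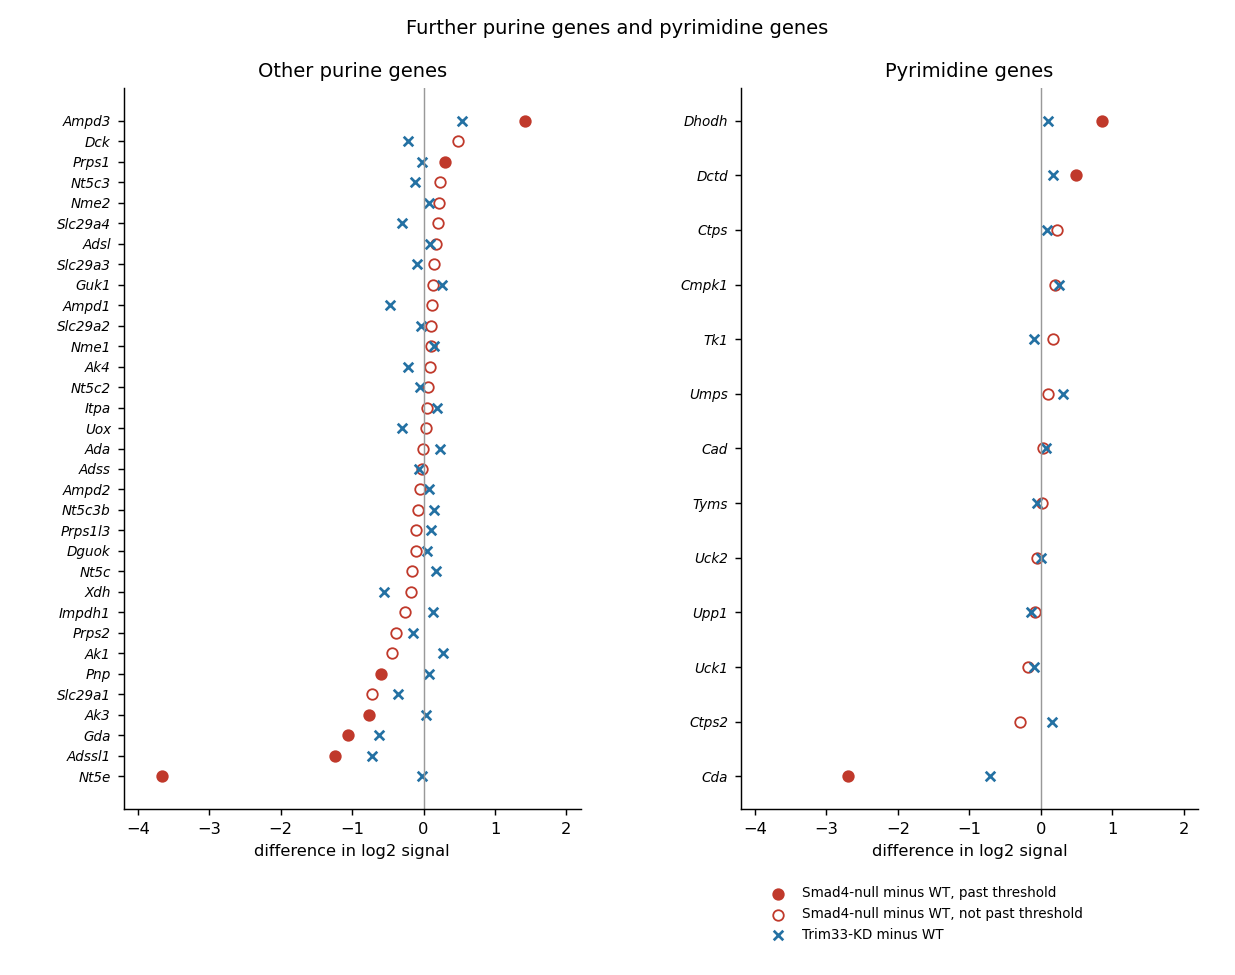
Smad4-null minus WT in log2 signal (x axis) for 33 further purine genes and 13 pyrimidine genes, with filled red circles for genes past the limma threshold, open red circles for the rest and blue crosses for Trim33-KD minus WT. Nt5e at -3.67 and Cda at -2.69 are the 2 furthest genes in Smad4-null, while Nt5e lies at -0.02 in Trim33-KD.

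The lines differed in other ways that moved together with the Smad4-null comparison. The summed linear signal of 4 measured mesendoderm markers was 298 to 526 in Smad4-null, 1896 to 4894 in Trim33-KD and 3623 to 8013 in WT, and that of 7 cell cycle genes was 69263 to 76563 in Smad4-null, 64304 to 66874 in Trim33-KD and 57361 to 68704 in WT. The 8 pluripotency markers summed to 49193 to 51921, 46213 to 54410 and 47032 to 56220 in the same order of lines, and 9 feeder fibroblast markers to 664 to 745, 624 to 706 and 621 to 781, so both sums overlapped. Of the 8 pluripotency markers, however, 2 passed as higher in Smad4-null than in WT (Utf1 and Sox2), beside 7.12% of all genes. As lower, 4 passed (Fgf5, Tdgf1, Nanog and Pou5f1), beside 11.3% of all genes. Differences ran from -1.43 for Fgf5, an epiblast gene, to 0.82 for Utf1 (log2). Nanog read 12.13 and 12.30 in Smad4-null-ac against 12.95 and 12.92 in WT-ac. With SB431542 it overlapped, at 12.19 and 12.30 in Smad4-null-SB and 12.41 and 12.14 in WT-SB. Of the 9 fibroblast markers, Dcn passed as higher in Smad4-null and 2 as lower, beside the same shares of all genes. Dcn was at 7.86 against 4.59 in WT (log2 signal). Extraembryonic endoderm markers summed to 640 to 772, 728 to 830 and 848 to 999.5 and trophoblast markers to 2152 to 2286, 3545 to 7603 and 2539 to 3329, both sums lower in Smad4-null than in WT with no overlap. Of the 5 trophoblast markers 1 passed, as lower (Cdx2, -2.95), beside 11.3% of all genes lowered. Krt8, at 10.16 in Smad4-null and 10.83 in WT (log2 signal), did not pass, and 2 of the 5 averaged higher in Smad4-null. Some markers were dim in every line, such as Postn at 1.96 in Smad4-null, 1.10 in Trim33-KD and 0.99 in WT (log2 signal). Afp averaged 2.36, 1.65 and 1.67 in the same order. Without detection calls, whether such markers were present at all is unknown. The part of the marker differences in the values of the purine genes was not tested. Smad4 itself read 12.17 in Smad4-null and 11.96 in WT, so its array signal was not lower in the line labelled null, and where its probe set lies relative to the mutation is not given. The Y-linked Eif2s3y averaged 11.20 in Smad4-null, 10.76 in Trim33-KD and 10.88 in WT. On 2 WT arrays, WT-ac replicate 1 and WT-SB replicate 1, the 18S control probes read 5.53 and 5.82, against 7.56 to 10.2 on the other 10.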

How the data were processed

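For each probe set and array the authors deposited 1 log2 signal, on 12 arrays; per the labels, biotinylated cRNA was made from total RNA by the standard Affymetrix protocol. On each array the antilog values had a trimmed mean of 500 (2% trimmed), a linear scaling that leaves the spread of each array as it was. The sources used here give neither the summarization method nor detection calls; limma is named in the submitters' processing notes.

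Probe sets were named through GEO's platform annotation: 34945 had 1 symbol, 932 several and 9160 none, and 64 control probe sets were left out. The brightest probe set stood for each of 18193 genes. A limma means model (limma 3.58.1, R 4.3.3) with 6 groups and 12 arrays (6 residual degrees of freedom before moderation) gave all comparisons, with Benjamini-Hochberg adjustment over all genes and a threshold of 0.05. No detection filter was used. The number of arrays limits the precision. The genes and lists were chosen with earlier results of these data known. In the additional lists, up to 4 genes a direction were named by size of the difference among those that passed. The model was tested on simulated data. Replicate numbers did not pair the arrays over all groups. Over 15 pairs of groups the same-numbered deviations correlated from -0.30 to 0.39, 6 of them over 0.1. Within lines the same-numbered activin and SB431542 arrays correlated at -0.19 in Smad4-null, 0.34 in Trim33-KD and 0.39 in WT. The 4 arrays of Trim33-KD and of WT may thus not be independent. The SDs with n = 4 and the comparisons between lines treat them as independent. No 2 replicate arrays held identical values. Alternatives covered normalization, filters, the choice of probe set, the prior, array weights, a replicate block and leaving out arrays. Promoter windows came from RefSeq (GRCm38.p6).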

Additional observations from a re-analysis of the deposited data

Results flagged for a closer look

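Of 75 sets of 4 arrays of 1 line checked (25 probe sets in 3 lines), 4 had an array set apart from the other 3, where chance gives about 1 in 20. Paics was involved in 2 of them, both on WT-SB replicate 2, an array with a narrow spread of values (SD 3.07, against 3.24 to 3.38 on 10 of the 12). There the Paics probe set 1423565_at read 13.55, with the other WT arrays at 13.37 to 13.38, and the Paics probe set 1436298_x_at read 10.97, with the others at 12.05 to 12.25. The same array was thus highest for the brightest probe set of Paics and lowest for its dimmest. The Gmps probe set 1433567_at read 12.77 on Trim33-KD-ac replicate 1, with the other Trim33-KD arrays at 12.87 to 12.88. The dim Adk probe set 1446068_at read 5.20 on Smad4-null-ac replicate 2, with the other Smad4-null arrays at 5.73 to 5.82. None of the 4 involved Hprt.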

How the results depend on the processing

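Over 26 alternatives the Hprt difference between Smad4-null and WT stayed between 6.37 and 6.68 (log2), and 0 genes of the 9 passed in any of the other 6 comparisons. In Smad4-null against WT, 3 genes passed, 1 to 3 when 1 array was left out, and 1 to 4 over all alternatives, with Pfas added in 3 of them. By the brightest probe sets, the count was 1 (Hprt) when all probe sets were tested together. In that fit Aprt 1423801_a_at and Gart 1424436_at, dimmer probe sets of their genes, passed as well. The count was also 1 without the 2 WT arrays of low 18S signal, an alternative chosen after seeing the data. The cause was not tested. The Ppat difference turned to -0.14 with a gene's probe sets averaged and to -0.12 without _x_at and _s_at probe sets, where other probe sets stand for the gene. Of the further purine genes 7 passed in Smad4-null, but 11 with a trended and robust prior, 4 without the 2 arrays of narrow spread and 4 without the 2 WT arrays of low 18S signal (5 to 7 without 1 array), and in Trim33-KD 1 instead of 0 with values floored at 64 (6 on the log2 scale). Under that floor Nt5e differed by -2.96 and Ampd3 by 0.84, and Gda had no difference. With probe sets averaged, Nt5e differed by -2.55 and Dhodh by 0.54, and Dhodh by 0.22 without _x_at and _s_at probe sets. With the replicate block 3 genes of the 9 passed in Smad4-null against WT and the Hprt difference was 6.56; it changed no call of the 9 genes. With the replicate number as a random block within each line, an alternative added after seeing the data, the consensus correlation was 0.12, and 3 of the 9 genes (Hprt, Aprt and Ppat) and 7 further purine genes passed in Smad4-null, while 65 of all genes passed in Trim33-KD. Over all genes the count that passed was 3356 in Smad4-null (1748 to 4162 over the alternatives) and 118 in Trim33-KD (0 to 787). Median centring moved the median of all genes to 0.16 in Trim33-KD minus WT (-0.04 as deposited) and to -0.10 in activin minus SB431542 in Smad4-null (0.06 as deposited). Signals near or below 6 on the log2 scale limit the folds of Hprt, Nt5e, Ampd3 and Gda.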

Other observations

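Sex-linked genes were read because Hprt lies on the X chromosome. Xist, the RNA that coats the inactive X chromosome, averaged 8.89 ± 0.10 in Smad4-null, 8.07 ± 0.15 in Trim33-KD and 8.12 ± 0.30 in WT (log2 signal, SD, n = 4 each), and its Smad4-null arrays, from 8.76 to 9.01, lay above all WT arrays, from 7.74 to 8.48. The Y-linked Uty averaged 8.63 in Smad4-null, 8.47 in Trim33-KD and 8.51 in WT. Pnp, which frees the bases that Hprt salvages from their nucleosides, read 11.86, 11.88, 11.80 and 11.80 in Smad4-null, 12.40, 12.58, 12.49 and 12.57 in Trim33-KD, and 12.42, 12.35, 12.38 and 12.57 in WT; it was named after its values were seen. Its Smad4-null arrays were all below the others, with a difference of -0.59 ± 0.08 from WT (log2, SE). Hprt was thus higher and Pnp lower in Smad4-null than in WT, and whether these differences are related was not tested. The linear signals of the 9 genes, summed, ran from 60193 to 72918 in Smad4-null, 48958 to 52192 in Trim33-KD and 49620 to 57796 in WT. Hprt is part of these sums through the values it was chosen by, and nothing is read from them.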
